A study of Mus musculus with 3 samples.

Results

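The cells described here were 375 mouse thymocytes that carried transcripts of the T cell receptor α constant gene, of natural killer (NK) receptors and of the chemokine receptor Cxcr3, with no Gzmb transcript. They were selected on their own UMI counts (unique molecular identifiers, each standing for one captured transcript). A member had at least 1 UMI of Trac, at least 2 UMIs summed over Klrk1, Klrd1 and Klrb1c, at most 2 UMIs summed over Ifit1, Ifit3 and Isg15, at most 2 UMIs of Ccl5, none of Gzmb and at least 1 of Cxcr3. Among 2969 cells with Trac and NK-receptor transcripts in the second and the third runs, 210 members came from the second run (10.9% of its 1923 such cells, 2.37% of all its cells) and 165 from the third (15.8% of 1046, 2.20% of all its cells). The other 2594 cells divided into 4 classes by the same gene counts: the Cxcr3-negative cells that met every other condition (343 and 124 cells in the second and the third run), the cells with 1 or more UMIs of Gzmb and low Ccl5 (827 and 387), the Ccl5-high cells with more than 2 UMIs (442 and 195), and the interferon class with more than 2 UMIs of Ifit1, Ifit3 and Isg15 (101 and 175).

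Single-cell RNA sequencing with a droplet 3' kit was performed on thymocytes of C57BL/6 mice labelled week 6, 4 thymi pooled for each sample, without further genetic change or treatment. The second run held DN1 and DN2 thymocytes, which are early CD4- CD8- cells that express CD44, and cells with surface TCRγδ had been gated out. In the third run, DN3 and TCRγδ+ thymocytes had been sorted apart and were then mixed with the DN1 and DN2 populations. All sorts excluded cells stained for NK1.1, TCRβ, the coreceptors CD4 and CD8, the B cell marker B220 and the myeloid integrins CD11c and CD11b, so that NK1.1, the product of Klrb1c, and the TCRβ chain were absent by gate from the surface of the wanted cells, while their transcripts were counted in the members. Each sort was made once, and a first run of DN and TCRγδ+ cells had 4 cells with Trac and NK-receptor transcripts, 2 of which met all conditions for members. No cell barcode was shared by the second and the third runs, while 72 were shared by the first and second. 3 of the latter were members. The median depth of members was 2725.5 UMIs in the second run and 5629 in the third, compared to 2788 and 6071 for the other NK-receptor Trac+ cells.

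NK receptors are best known from NK cells, but are also expressed by T cells with innate features, including invariant NKT cells, whose α chain in mice joins the variable segment Trav11 to the joining segment Traj18 and recognizes lipids presented by CD1d. Such cells follow the transcription factor PLZF (Zbtb16) and split into several effector types, among them a type 1 with T-bet, Cxcr3 and NK receptors, and a type 17 with RORγt, Ccr6 and Il23r. Cxcr3 itself is a receptor for interferon-induced chemokines and marks type 1 lymphocytes.

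To show which germline pieces the variable segment counts refer to, the ends that are brought together in the invariant chain are given from the GENCODE M21 annotation of GRCm38, 5′ to 3′ on the + strand. The last 60 bases of exon 2 of Trav11 lie on chromosome 14 from 53519800 to 53519859, and capitals mark the final in-frame cysteine codon, near which the antigen-binding loop begins. The single exon of Traj18 lies on chromosome 14 from 54200777 to 54200842, and capitals mark its Phe-Gly-X-Gly codons.
Trav11: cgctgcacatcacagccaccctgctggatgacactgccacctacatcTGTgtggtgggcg
Traj18: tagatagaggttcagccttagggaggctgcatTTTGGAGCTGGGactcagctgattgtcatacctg

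The gate genes describe the members but are not findings. Cxcr3 was held by a thin margin, since 148 of 210 members in the second run and 72 of 165 in the third had exactly 1 UMI of it, next to 343 and 124 cells just outside with 0. A cell with 0 UMIs of Cxcr3 may therefore still have expressed it. The NK-receptor sum had a median of 6 UMIs per member in the second run and 7 in the third, and 22 and 16 members were at the limit of 2 while 36 and 21 cells fell just outside with 1. Klrd1, which encodes CD94, was found in 88.1% and 85.5% of members, Klrb1c in 69.5% and 79.4%, and Klrk1, which encodes NKG2D, in 53.3% and 57.0%. The 104 cells in the second run and 66 in the third that had 1 UMI of Gzmb but met all other conditions, Cxcr3 included, lay just outside. Trac was at 1 UMI in 14 and 12 members, compared to 13 and 20 cells outside with 0. For Ccl5, 3 and 4 members had 2 UMIs and 7 and 3 cells had 3 outside. For the interferon sum, 7 and 7 members had 2 UMIs and 3 and 7 cells had 3 outside.

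Xcl1, a chemokine that attracts cross-presenting dendritic cells, was chosen as a marker of these cells but was not used by the gate. It was found in 70.5% of members in the second run and 67.9% in the third, compared to 2.12% and 2.16% of DN3-like cells (Ptcra of 2 or more, Il2ra of 1 or more, no Trac and no NK receptor, median depth 6500 and 7960 UMIs). After each cell was thinned to 1000 UMIs, which left out no member, these shares were 35.2% and 26.7% for members and 0.163% and 0.0862% for DN3-like cells. Among the other NK-receptor Trac+ cells, 62.6% and 73.6% had Xcl1, and Xcl1 was not called between them (log2 difference 0.15 ± 0.09).

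Beside Trac, which the gate required, the members carried other transcripts of T cell receptor chains. At least 1 UMI of Trbc1 or Trbc2 was found in 207 of 210 members in the second run and 165 of 165 in the third, and a CD3 gene in all of them, shares that DN3-like cells had as well (Trbc1 or Trbc2 in 99.8% and 99.4%, a CD3 gene in all). Trdc was found in 22 and 21 members, 10.5% and 12.7%, and none of these lacked a Trbc transcript. A γ constant gene was found in 77.6% and 74.5%, compared to 75.2% and 78.0% of the Gzmb-positive class. Cd4, Cd8a or Cd8b1 was found in 3 and 1 members only. Of the 10 listed markers of NK cells and type 1 innate lymphoid cells, 6 and 8 had UMIs in members and summed to 959 and 903 CPM (counts of a gene per 1000000 UMIs of the class in that run), compared to 1342 and 1030 CPM in the other NK-receptor Trac+ cells and 18.5 and 16.3 CPM in DN3-like cells. Eomes, which is one of them, was at 0 UMIs in both runs, which allows up to 4.37 and 2.78 CPM, and Ncr1 was at 0 and 1 UMI. The most abundant was Klra9, a Ly49 receptor gene, at 613 and 462 CPM in members. As Ly49 genes are near-identical copies, counts for single Ly49 genes are uncertain.

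Of the variable segments of the α chain, Trav11 led. It gave 30 of 39 Trav UMIs in the second run (76.9%, exact 95% interval 60.7 to 88.9, from 21 cells) and 24 of 39 in the third (61.5%, interval 44.6 to 76.6, from 15 cells). The next segments gave 2 UMIs at most in the second run and 3 in the third. Of the Trav UMIs of DN3-like cells, Trav11 gave 0 of 28 in the second run, for which the exact interval reached 12.3%, and 2 of 81 in the third, or 2.47% (0.300 to 8.64). Cells outside the NK-receptor Trac+ gate had 17.99% (14.3 to 22.2) and 4.85% (3.36 to 6.75). The other NK-receptor Trac+ cells had 71.7% (66.3 to 76.6) and 53.6% (46.8 to 60.4), so that the intervals overlapped in both runs. These intervals cover counting error only. Reads from a 3' kit seldom reach the variable segments, and only 26 and 28 members had a Trav UMI at all. None of the 60 listed joining segments, Traj18 included, had a UMI in any cell kept, so that the joint of the 2 sequences above was not seen. Trbv13-2, which encodes the Vβ8.2 chain that many invariant NKT cells use, gave 9 of 26 Trbv UMIs in members of the third run and 0 of 5 in the second, compared to 74 of 199 and 7 of 45 in the other NK-receptor Trac+ cells and 64 of 161 and 4 of 20 in DN3-like cells. Trgv2 had 12 UMIs in 9 members of the second run and 93 UMIs in 58 members of the third.

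**Figure D1:**
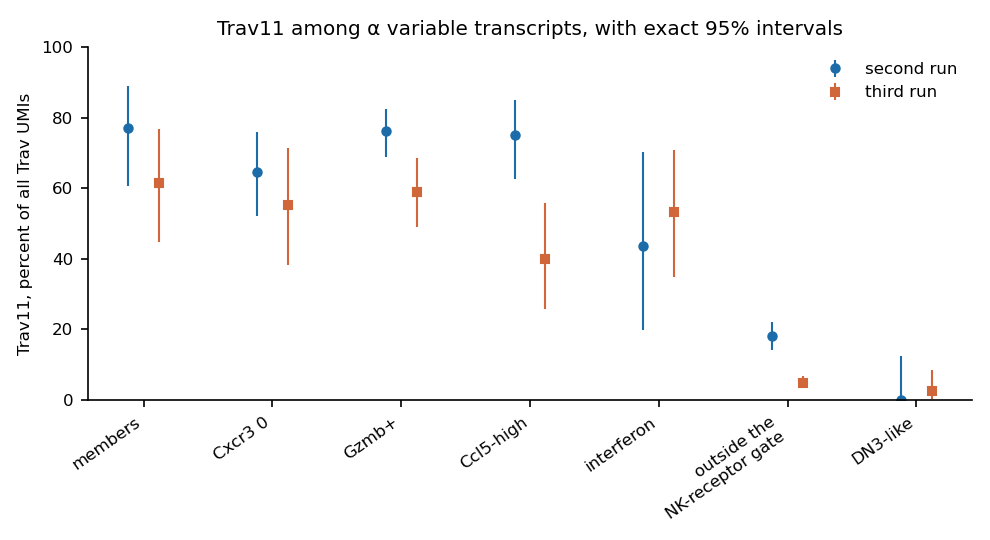
Share of Trav11 among all Trav UMIs in percent (vertical axis) in the members, the 4 other NK-receptor Trac+ classes, the cells outside that gate and the DN3-like cells (horizontal axis), as points for the second run and squares for the third, with exact 95% binomial intervals. The members lie at 76.9% and 61.5%, with intervals that overlap those of the other 4 classes, and above the DN3-like cells at 0 and 2.47%.

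The first question was how the members differ from all other cells with Trac and NK-receptor transcripts in their run. The largest rise was that of Izumo1r, which encodes folate receptor 4, a surface protein of regulatory and anergic T cells. Next to it rose Zbtb16, Ikzf2 (Helios), the skin-homing chemokine receptor gene Ccr10 and 2 inhibitory Ly49 receptor genes. Gzma, a granzyme, the zinc-finger factor gene Klf2, which drives egress receptors, and Klrc1, which encodes NKG2A, fell. UMIs were summed for each run and class and tested with the run as a term in edgeR's quasi-likelihood test, two-sided, with Benjamini-Hochberg adjustment over the 9956 genes tested and a threshold of 0.05. Of these genes, 145 (1.46%) were called, 56 higher (0.562%) and 89 lower (0.894%) in the members, 140 of them in the same direction in both runs. The 10 gate genes were not tested. The p-values measure the spread between 2 sorts, with 1 residual degree of freedom and a spread that is shared across genes. Without the run term, no gene was called by edgeR, while 44 had an unadjusted p under 0.05, and DESeq2 with the run term called 24. 1 member of the third run, which held 3.003% of the members' UMIs there and 6801 of their 6809 Igha UMIs along with 12495 of Igkc, carried transcripts that plasma cells are known for. Without the 2 cells that had 100 or more Igha UMIs, this member and 1 interferon cell of the second run, 257 genes were called. Among the genes of the lists, the fixed genes and the largest rises and falls there were 71 calls, of which 54 were lost and 17 kept with DESeq2. Of those that could be tested again, 46 were lost and 4 kept with counts thinned to 1000 UMIs per cell, and 42 lost and 26 kept without the 750 cells of each run with the highest doublet scores. Birc5 and Top2a turned direction with thinned counts, and Cd74 and Mki67 without those cells. Zbtb16, Ikzf2, Ccr10, Klrc1, Tyrobp, Lef1, Satb1, Cd5, Cd6 and Gimap5 were among the calls lost both with DESeq2 and with thinned counts. Klra1, Klra3 and Klf2 lost theirs with thinned counts. Izumo1r, Gzma, S100a4 and S100a6 kept theirs in all 3 settings.

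Izumo1r (ENSMUSG00000031933, chromosome 9, 14885814 to 14903949, - strand) was at 293 CPM in members and 88.9 CPM in the other cells of the second run, and at 214 and 74.1 CPM in the third. The members were the highest of the 5 classes in each run. The log2 difference was 1.64 ± 0.10 (SE, 2 runs, edgeR adjusted p = 5.43e-09). It was found in 40.0% and 55.2% of members, in 20.1% and 26.6% of the other cells and in 1.47% and 2.33% of DN3-like cells. At 1000 UMIs per cell these were 20.95% and 15.2%, 8.81% and 6.70%, and 0.163% and 0.0862%.

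Among the factors of type 1 and innate-like lymphocytes, 3 of 15 tested genes rose and none fell, with a median log2 difference of 0.27, while the median of all tested genes was 0.00. Zbtb16 was at 33.5 CPM in members and 17.6 in the other cells of the second run, and at 117 and 77.0 CPM in the third, a log2 difference of 0.69 ± 0.13 (edgeR adjusted p = 0.00735). Its call was lost with DESeq2, with thinned counts, without the highest doublet scores, and without cells holding B, myeloid or erythroid transcripts. Ikzf2 was at 115 and 72.9 CPM in the second run and at 231 and 156 CPM in the third, a log2 difference of 0.62 ± 0.11 (edgeR adjusted p = 0.00236). Id2, an inhibitor of E proteins, rose by 0.27 on the log2 scale. Tbx21, which encodes T-bet, was lower in members of the second run (46.6 against 62.3 CPM) and higher in those of the third (66.7 against 47.6 CPM) and was not called.

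The receptor genes moved both ways. Of 22 tested NK receptors and adaptors, 3 rose (Klra3, Klra1 and Cd160) and 5 fell (Klri2, Tyrobp, Klre1, Klrc1 and Klra5). The median of the list was -0.19. DESeq2 kept only the calls of Klra3 and Klra1, and both were lost with thinned counts. Klra1 was at 457 CPM in members and 293 in the other cells of the second run, and at 382 and 232 CPM in the third, a log2 difference of 0.70 ± 0.08 (edgeR adjusted p = 4.72e-05). Klra3 showed the same difference of 0.70 ± 0.10. Klrc1 was at 148.5 and 211 CPM in the second run and at 56.5 and 106 CPM in the third, a log2 difference of -0.67 ± 0.12 (edgeR adjusted p = 0.00356), and its call was lost with DESeq2 (adjusted p = 0.328). Tyrobp, the adaptor for activating Ly49 receptors, fell by 1.05 and Klre1, a lectin-like receptor gene, by 0.74. Inhibitory receptors were among the genes that rose and among those that fell.

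The granule genes differed from gene to gene. Of 16 tested, 2 rose (Ctsd and Ctsw, both cathepsins) and 3 fell (Gzma, Gzmc and Serpinb9), with a median of -0.02. Gzma was at 121 CPM in members and 395 in the other cells of the second run, and at 61.1 and 527 CPM in the third, a log2 difference of -2.39 ± 0.18 (edgeR adjusted p = 4.55e-08). It was found in 9.05% and 16.97% of members and in 56.4% and 62.8% of DN3-like cells. Nkg7, a granule membrane protein, was abundant in both and not called, with 1670 and 1253 CPM in members compared to 1724 and 1270. Prf1 (perforin) and Ifng were not called either. Genes that travel with Gzmb or Ccl5 in the same cells can differ through the gate alone, and their part in these values was not tested.

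Among 10 lineage factors, Lef1 and Satb1 rose (0.56 and 0.48 on the log2 scale) and Myb fell by 0.84. These calls were all lost with DESeq2 and with thinned counts. Cd5 rose by 0.57 as the only one of 16 tested genes of receptor signaling, and Cd6 by 0.44 with Cd52 by 0.24 among 8 tested coreceptor and costimulation genes. None of the 9 tested T cell receptor and CD3 genes was called. Of 18 genes of the S100, annexin, galectin and Ly6 list, 7 fell and none rose, with a median of -0.33. S100a4 fell by 1.13 ± 0.09 and S100a6 by 0.75 ± 0.08 on the log2 scale, and S100a6 was at 690 and 646 CPM in members compared to 1186 and 1096 CPM. Gimap5 and Gimap6, GTPases that support lymphocyte survival, rose by 0.45 and 0.48, among 8 tested. Of 24 tested homing and egress receptors, Klf2 with its targets included, Ccr6 and Klf2 fell and none of the list rose (Ccr10 was not on that list). Of the 11 tested type 17 genes, 5 fell (Ccr6, Il17re, Tmem176a, Blk and Tmem176b) and Maf rose, with a median of -2.13. DESeq2 kept only the calls of Tmem176a and Tmem176b. Against the Gzmb-positive and the Ccl5-high cells, none of 12 tested type 17 genes fell. Icos and Maf rose against the Ccl5-high cells. Of 17 tested genes of the DN stages, Ptcra and Dntt fell, and both calls were lost with DESeq2 and without the highest doublet scores. Zbtb16 alone rose among 8 tested NKT markers. Ccl3 alone fell among 10 tested secreted factors, and Ifngr2 alone among 19 tested cytokine receptors. None was called of 6 tested γδ receptor genes, of 10 MHC class I genes and of 13 immediate early and heat shock genes.

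The 10 largest rises held, after Izumo1r (1.64) and the unnamed transcript 9530036M11Rik (1.52), Ccr10 at 1.03 ± 0.17, Trf (transferrin) at 0.95 ± 0.19, Ephx1 (an epoxide hydrolase) at 0.93, Gm12840 at 0.83, Tbc1d4 at 0.81, Tob1, an antiproliferative factor, at 0.74, and Rasa1, a Ras GTPase-activating protein, and Klra3 at 0.70. Ccr10 was at 39.3 and 71.3 CPM in members, but its UMIs came from 7.14% and 10.3% of them. These shares were close to the 4.96% and 10.6% in the other cells. The call of Ccr10 was lost with DESeq2, with thinned counts and without the highest doublet scores. It was also lost without cells holding B, myeloid or erythroid transcripts. Among the 10 largest falls, 4 genes had no UMI in members. The upper bound set by 3 UMIs over both runs puts Ccl3 at least 9.15-fold lower, Cxcl10 at least 8.36-fold, Lrrc17 at least 5.16-fold and Ifngr2 at least 3.58-fold lower. In the second run alone these bounds were 2.80, 1.79, 1.27 and 1.53-fold, and in the third 6.72, 7.27, 4.24 and 1.98-fold. Ccr6 and Kcnk1 had 1 UMI each in members, and the ratios to the other cells had exact intervals whose upper ends were 0.237 and 0.355. Sdc1 had 2 UMIs, with an interval up to 0.306. Gm4208, Pxdc1 and H2-Eb1 had log2 differences of -3.60 ± 0.40, -3.20 ± 0.45 and -3.03 ± 0.52. DESeq2 lost the calls of all 10 of these falls, and of the 10 rises it kept only those of Izumo1r and Klra3.

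Interferon-induced genes and B cell markers were among those that fell. Cxcl10, Usp18, Rsad2 and Ifit3b are interferon-induced, and the comparison cells include the interferon class by the gate. Of 23 tested genes of the interferon list, 3 fell (Usp18, Rsad2 and Ifit3b) and none rose, with a median of -0.30. With DESeq2 the calls of Cxcl10, Usp18, Rsad2 and Ifit3b were lost. The B cell markers H2-Aa, H2-Ab1 and Cd74, class II genes of antigen presentation, fell as well, 3 of 7 tested with a median of -1.11. DESeq2 lost all 3 calls. Without the highest doublet scores, H2-Aa and H2-Ab1 lost theirs and Cd74 turned to a log2 difference of 0.49. Summed over its 11 genes, the B cell list was at 269 CPM in second-run members and 1591 in the other cells, of which Igkc alone made 1304. In the third run it was at 11856 CPM in members, of which Igkc made 11600, mostly from the cell named above, and at 481 in the other cells. 6 and 3 of these genes were at 0 in the members. The part of such transcripts in the differences was not tested. Without cells with 3 or more UMIs over 10 B, myeloid, plasmacytoid and erythroid genes, 191 genes were called, 62 higher and 129 lower. Of the named calls that could be tested again there, 61 were kept and 7 lost, with Cd74, Zbtb16 and Ccr10 among the latter. H2-Aa, H2-Ab1 and H2-Eb1 were not tested again. Myeloid and dendritic markers summed to 178 and 166 CPM in members and 180 and 163 CPM in the other cells, mostly Cst3, and 9 of 13 were at 0 in the members of each run. The plasmacytoid list summed to 514 and 247 CPM in members compared to 528 and 397 CPM, the erythroid list to 14.6 and 18.5 CPM compared to 18.7 and 15.9 CPM, and the stromal list to 39.3 and 33.3 CPM compared to 34.7 and 35.2 CPM.

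**Figure D2:**
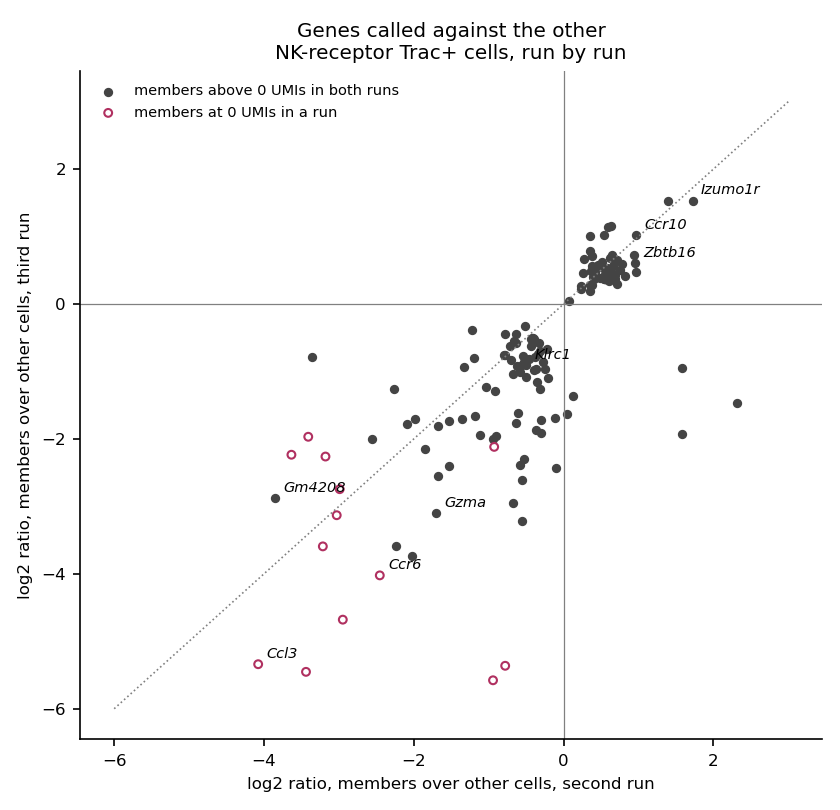
Log2 ratio of members over the other NK-receptor Trac+ cells in the second run (horizontal axis) and the third run (vertical axis) for the 145 called genes, with open circles for genes at 0 UMIs of members in a run, whose place depends on a prior count, and a dotted line of equal ratios. Izumo1r lies at 1.72 and 1.53, and 140 of the points lie on the same side of 0 in both runs.

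The members and the Cxcr3-negative cells passed the same base gate, and differ by rule in Cxcr3 only. This comparison asked whether Cxcr3 marked a distinct group. Il23r, Ccr6 and Il17re, receptor genes of type 17 cells, were at or near 0 in the members and present in the Cxcr3-negative cells, while Ifng, Nkg7, Il2rb and 5 of 10 tested MHC class I genes were higher in the members. Of these higher genes, only the class I gene H2-Q7 kept its call with thinned counts and with an NK-receptor sum of 3 or more. Of 8737 genes tested in a fit of all 5 classes in both runs, 197 (2.25%) were called, 80 higher (0.916%) and 117 lower (1.34%), 195 in the same direction in both runs. Without the run term edgeR called none while 200 had an unadjusted p under 0.05, and DESeq2 with it called 84.

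Of the 12 type 17 genes, 11 fell and none rose, with a median log2 difference of -3.91, and the median of all tested genes was -0.00. Il23r, a receptor subunit for interleukin-23, had 0 UMIs in members in both runs and was at 13.03 CPM in the Cxcr3-negative cells of the second run and 49.6 CPM in those of the third, at least 17.8-fold lower by the bound of 3 UMIs over both runs. In the second run alone this bound was 2.98-fold, and in the third 17.9-fold. Ccr6, a chemokine receptor of type 17 cells, had 0 UMIs and 1 UMI in members, compared to 14.7 and 87.2 CPM. Il17re, a receptor subunit for interleukin-17C, was at 2.91 and 2.78 CPM in members compared to 42.4 and 79.0 CPM, a log2 difference of -4.39 ± 0.42 (edgeR adjusted p = 3.43e-06). Blk, a Src-family kinase, was at 11.6 and 10.2 CPM compared to 112 and 219 CPM. Icos, a costimulatory receptor, was at 125 and 312 CPM compared to 221 and 762 CPM, a log2 difference of -1.05 ± 0.14. Sdc1 (syndecan-1) fell with them, with 2 UMIs in members and 141 in the Cxcr3-negative cells, a ratio whose interval reached 0.0684. The levels were higher in the third run, where Ccr6 was found in 34.7% of the Cxcr3-negative cells, than in the second, where it was in 4.37%.

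The third-run cells of the Cxcr3-negative class were deeper, with a median of 8107.5 UMIs compared to 5629 for the members, whereas the depths were close in the second run, 2764 and 2725.5. With counts thinned to 1000 UMIs per cell, 21 genes were called, and 129 of the 133 reported calls that could be tested kept their direction. Among the genes of the lists, the fixed genes and the largest rises and falls there were 65 calls. Of those that could be tested again with thinned counts, 32 were lost, Ifng, Nkg7, Ly6c2, Il2rb, Cd27 and Fasl among them, 9 were kept, with Blk, Icos and H2-Q7, and H2-Q6 and Top2a turned direction. With an NK-receptor sum of 3 or more, where 48 genes were called in all, the same 6 were among 43 calls lost, while 15 were kept, with Ccr6, Il17re, Blk and Icos. Il23r was not tested again in either setting, and Ccr6 and Il17re were not tested again with thinned counts. DESeq2 lost 25, with Nkg7, Il2rb, Cd27, B2m, H2-K1 and H2-D1, and kept 40, with Il23r, Ccr6, Il17re and Ifng. Nkg7 was at 1670 and 1279 CPM in the second run and at 1253 and 375 CPM in the third, a log2 difference of 0.98 ± 0.23 (edgeR adjusted p = 0.0283). Ifng, the cytokine of type 1 cells, was at 119 and 65.2 CPM in the second run and at 135 and 58.8 CPM in the third, a log2 difference of 1.03 ± 0.22 (edgeR adjusted p = 0.0138). Ly6c2, a surface protein of memory-type T cells, rose by 1.002 ± 0.21, Il2rb, the β subunit for interleukin-2 and interleukin-15, by 0.71 ± 0.17, and Cd27 by 0.66 ± 0.17. Xcl1 was at 475 and 330 CPM in the second run and at 434 and 89.1 CPM in the third and was not called, with an edgeR adjusted p = 0.0589. Tbx21 was at 46.6 and 44.0 CPM in the second run and at 66.7 and 10.1 CPM in the third, and was not called either (adjusted p = 0.115 from edgeR).

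Of 10 MHC class I genes, 5 rose and none fell (H2-Q7, H2-Q6, H2-K1, H2-D1 and B2m, median 0.48), and H2-Q7 was at 291 and 168 CPM in the second run and 400 and 149 CPM in the third. Since H2-Q6 and H2-Q7 are near-identical, the 2 cannot be told apart with certainty. Of the 5 calls, only that of H2-Q7 was kept with DESeq2, with thinned counts and with an NK-receptor sum of 3 or more. Those of B2m, H2-K1 and H2-D1 were lost in all of these settings. Of 8 Gimap genes, 4 rose and none fell (Gimap3, Gimap5, Gimap4 and Gimap6, median 0.70). All 4 calls were lost with thinned counts and with an NK-receptor sum of 3 or more. Of 16 granule genes, 4 rose (Fasl, Nkg7, Ctsd and Ctsw), and Fasl, a death ligand, was at 61.1 and 39.9 CPM in the second run and 111 and 33.1 CPM in the third. Of 8 coreceptor and costimulation genes, 4 rose (Cd2, Cd27, Cd6 and Cd52). Of 17 cytokine receptors, Il2rb rose and 5 fell (Ifngr2, Il1r1, Il17rb, Il12rb1 and Il18r1). The γ constant gene Tcrg-C1 was at 360 and 131 CPM in members and 617 and 242 CPM in the Cxcr3-negative cells, and fell by 0.80 ± 0.13. Tcf7, a factor of T cell commitment, fell by 0.83 ± 0.17. The calls of Tcrg-C1 and Tcf7 were lost with thinned counts and with an NK-receptor sum of 3 or more. That of Tcf7 was also lost with DESeq2. Zbtb16, at 33.5 and 36.7 CPM in the second run and 117 and 174 CPM in the third, was not called. Of the 8 tested NKT markers, Il17rb, Rora and Icos fell and none rose, with a median of -0.73. None of the tested B cell, myeloid, plasmacytoid, erythroid and stromal markers was called. Among the largest rises, Igha had a log2 difference of 7.99, but that came from 1 member of the third run, and without the 2 cells of 100 or more Igha UMIs it was -0.08. The others were Ralgds (2.56), Entpd1, which encodes the ectonucleotidase CD39 (1.78), Trf (1.74), Klra6 (1.61), St8sia1, a sialyltransferase (1.57), Ctla2b (1.36), Dennd4a (1.35), Mylip (1.26) and Fasl (1.24). The largest falls beside Il23r and Ccr6 were Lrrc17 and Stab2, at least 23.6-fold and 11.7-fold lower by the same bound, Ifngr2 at least 8.39-fold and Tpbgl at least 6.36-fold lower (in the second run alone 4.85, 2.05, 3.36 and 2.24-fold, and in the third 22.2, 11.6, 4.96 and 4.30-fold), and Kcnk1, Sdc1, Coro2b and Ltb4r1, which had 1 or 2 UMIs in members and ratio intervals that reached 0.0823, 0.0684, 0.118 and 0.129.

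Against the Ccl5-high cells, the members were higher in Izumo1r, Zbtb16, Icos and Maf and lower in Gzma, in 9 of 22 tested NK receptors and adaptors, and in Klf2. Of 8737 genes, 137 (1.57%) were called, 52 higher (0.595%) and 85 lower (0.973%). Without the run term edgeR called none and 152 had an unadjusted p under 0.05, while DESeq2 with it called 45. Among the genes of the lists, the fixed genes and the largest rises and falls there were 52 calls, of which DESeq2 lost 27, with Klra8, Klrc1, Tyrobp, Prf1, Ccl3, Ccl4, Ikzf2, Egr3 and Metrnl, and kept 25, with Izumo1r, Zbtb16, Icos, Maf, Gzma and Klf2. With thinned counts the call of Zbtb16 was among 15 lost. Izumo1r was at 293 and 214 CPM in members and at 24.5 and 21.7 CPM in Ccl5-high cells, a log2 difference of 3.42 ± 0.31 (edgeR adjusted p = 2.48e-06). Zbtb16 was at 33.5 and 117 CPM compared to 6.74 and 38.4 CPM, a log2 difference of 1.75 ± 0.21. Icos rose by 1.52 ± 0.16, Maf, a factor of type 17 and helper cells, by 1.40 ± 0.15, and Ikzf2 by 0.72 ± 0.14. Gzma was at 121 and 61.1 CPM compared to 910 and 1403 CPM, a log2 difference of -3.72 ± 0.34, and Klf2 at 446 and 121 CPM compared to 928 and 405 CPM.

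Of 22 tested NK receptors and adaptors, 9 fell (Klra8, Tyrobp, Klri2, Cd244a, Klre1, Klra5, Klra7, Klrc1 and Fcer1g, of which Cd244a was listed under this name in the third run only) and Klra3 rose, with a median of -0.74, while the median of all tested genes was -0.01. Of these calls, DESeq2 kept only those of Klra5, Klra7 and Klre1. Klra8, which encodes the activating receptor Ly49H, was at 1.46 and 6.48 CPM in members and at 23.9 and 45.6 CPM in Ccl5-high cells, a log2 difference of -2.93 ± 0.56 (edgeR adjusted p = 0.0078). Eomes was at 0 UMIs in members and at 3.68 and 32.6 CPM in Ccl5-high cells, and Ncr1 at 0 and 1 UMI compared to 7.96 and 29.7 CPM, and neither passed the filter for the test. Of 7 tested NK and type 1 innate lymphoid markers 4 fell, which are all among the receptors above, and DESeq2 kept only the call of Klre1 among them. Prf1 fell by 1.31 ± 0.26 and Ccl4, a chemokine, by 1.19 ± 0.29, and Ccl3 with no UMI in members was at least 23.1-fold lower, with bounds of 3.93-fold in the second run alone and 23.5-fold in the third. The integrin chains Itga4 and Itgb1 and the retention receptor Cd69 fell with Klf2, 4 of 23 homing genes, by 1.42, 0.80 and 0.78 on the log2 scale. S100a6 was at 690 and 646 CPM compared to 1592 and 1653 CPM. Of its list, 7 of 18 genes fell and S100a11 rose. The largest rises beside Izumo1r were 9530036M11Rik (3.997 ± 0.67), Tnni1 (3.21 ± 0.71), Egr3, an early receptor-signal factor (2.79 ± 0.66, with no UMI in the second run and 25.9 against 3.62 CPM in the third), and Zfp536 (2.77 ± 0.69). Beside Ccl3 and Gzma, the largest falls were Gm4208 (-5.24 ± 0.35), Gas7 (-3.28 ± 0.60) and Metrnl (-3.21 ± 0.78, with 2 UMIs in members).

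The fewest differences were found against the Gzmb-positive cells with low Ccl5. Of 8737 genes, 7 (0.0801%) were called, 3 higher (0.0343%) and 4 lower (0.0458%) in members, beside Gzmb, which the rule used. The 3 higher genes were Nrgn, a calmodulin-binding protein, Izumo1r and Ikzf2. Nrgn was at 46.6 CPM in members and 19.0 in Gzmb-positive cells of the second run and at 79.6 and 26.0 CPM in the third, a log2 difference of 1.47 ± 0.20 (edgeR adjusted p = 0.00145). Izumo1r was at 293 and 97.0 CPM in the second run and at 214 and 92.6 CPM in the third, a log2 difference of 1.39 ± 0.23 (edgeR adjusted p = 0.0111, with DESeq2 adjusted p = 0.316). Ikzf2 was at 115 and 58.7 CPM in the second run and at 231 and 120 CPM in the third, a log2 difference of 0.96 ± 0.14 (edgeR adjusted p = 0.0018). The calls of Nrgn and Ikzf2 were lost with thinned counts, and that of Ikzf2 also with 2 or more UMIs of Cxcr3 required. S100a6 fell by 0.69 ± 0.10 on the log2 scale, from 1135 and 1016 CPM to 690 and 646 CPM.

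The other 3 called genes were the replication-dependent histone genes Hist1h3c, Hist1h1b and Hist1h2ae, for which the runs differed. Without the 750 cells of each run with the highest doublet scores, the log2 differences of Hist1h1b and Hist1h3c turned from -1.72 and -2.14 to 0.23 and 0.0014, and the cause was not tested. In the third run Hist1h1b was at 55.5 CPM in members and 188 CPM in Gzmb-positive cells, while in the second run it had 1 UMI in members and was at 2.07 CPM. Hist1h2ae, the gene left outside the naming rule, had opposite signs in the 2 runs, log2 ratios of 0.31 and -1.68, and was named after its values were seen. Mki67 or Top2a, which are proliferation genes, were found in 5.71% of members in the second run and 30.3% in the third, compared to 7.01% and 24.0% of Gzmb-positive cells, and no cell cycle gene of the 19 listed was called here. Against all others together 7 of these 19 fell, with a median of -0.56, but Mki67 and Top2a among them had opposite signs in the 2 runs. Zbtb16 was higher in members in both runs, at 33.5 and 15.9 CPM and at 117 and 65.2 CPM, and was not called (edgeR adjusted p = 0.0525). Gzma was lower in both, at 121 and 235 CPM and at 61.1 and 275 CPM, and was not called (edgeR adjusted p = 0.0862). Without the run term no gene was called by edgeR and 41 had an unadjusted p under 0.05, and DESeq2 called 3. Without the 2 cells that had 100 or more Igha UMIs, the member named above and 1 interferon cell, 20 genes were called.

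**Figure D3:**
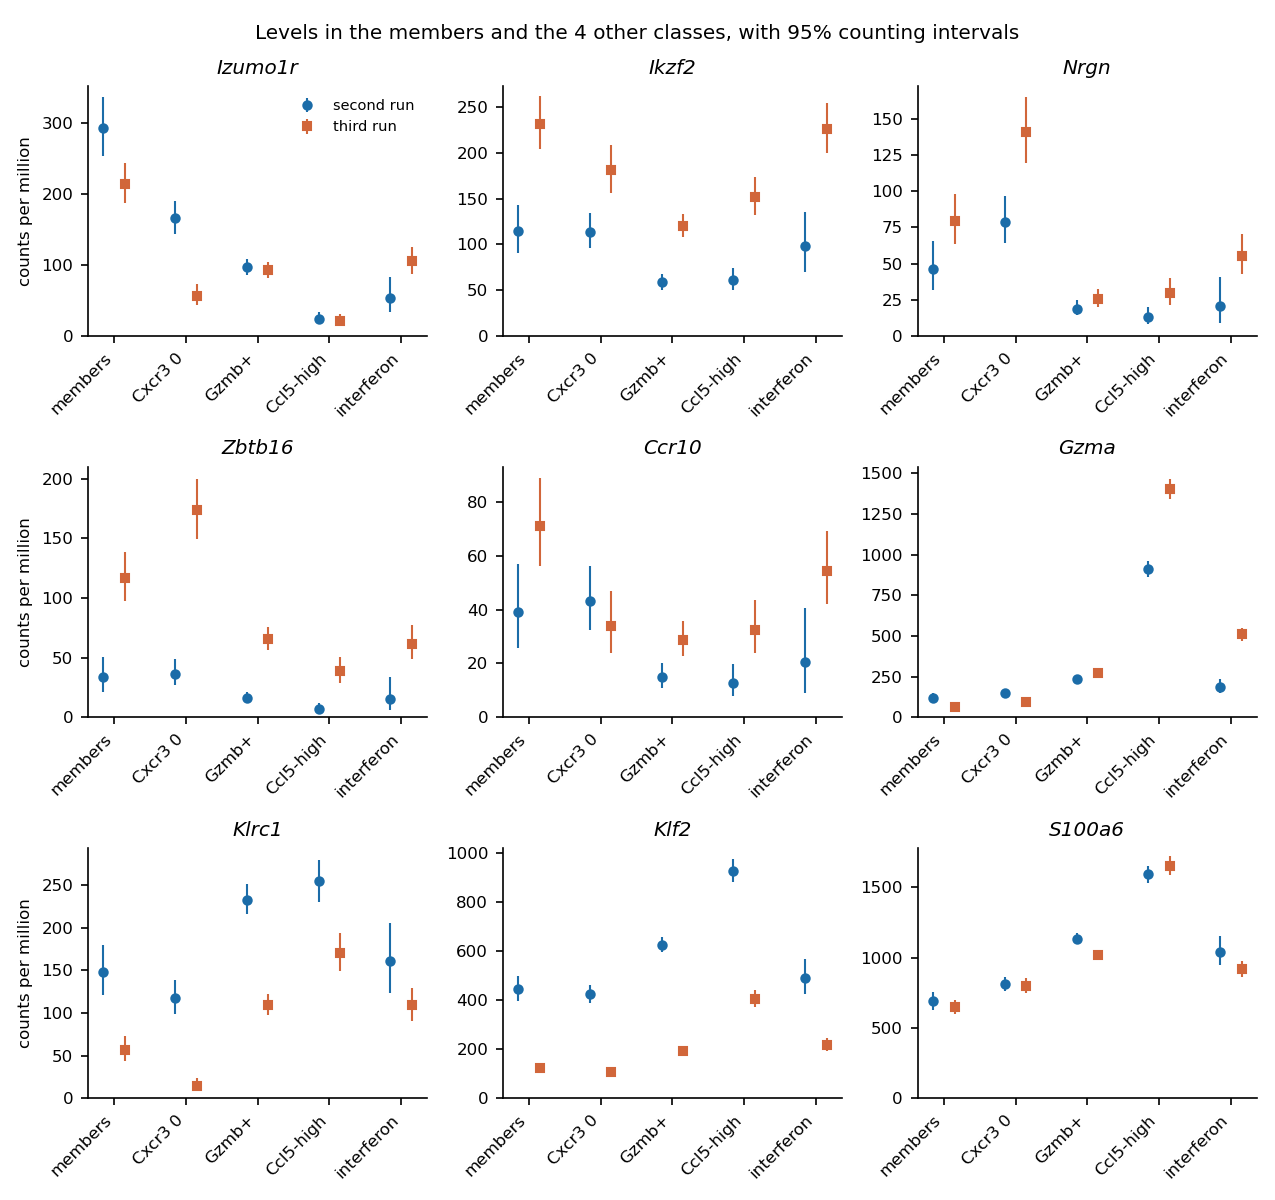
Level in CPM (vertical axes, from 0) of 9 genes in the members and the 4 other classes (horizontal axes), as points for the second run and squares for the third, with exact 95% Poisson intervals. Izumo1r is highest in the members at 293 and 214 CPM, and Gzma highest in the Ccl5-high class at 910 and 1403 CPM.

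Across the 5 classes the order of the genes above was not the same. Izumo1r was at 293, 166, 97.0, 54.3 and 24.5 CPM in the members, Cxcr3-negative, Gzmb-positive, interferon and Ccl5-high cells of the second run, and at 214, 56.9, 92.6, 105 and 21.7 CPM in those of the third. In the third run the Gzmb-positive and interferon classes were neighbours whose counting intervals overlapped. Nrgn did not follow it. The Cxcr3-negative cells had 79.0 and 141 CPM, above the members at 46.6 and 79.6 CPM, a log2 difference of -0.75 ± 0.18 (edgeR adjusted p = 0.0304).

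The surroundings of the members were described by placing each cell by 1990 variable genes, without the 10 gate genes (20 nearest cells, 15 principal components), and counting the classes next to it. Genes that travel with the gate genes stayed in. Cells outside the NK-receptor Trac+ gate made 15.5% of the neighbours of members in the second run and 17.9% in the third. Among the NK-receptor Trac+ neighbours, Gzmb-positive cells made 50.5% and 46.1%, compared to 43.0% and 37.0% of the cells available. Members made 15.8% and 26.0%, compared to 10.9% and 15.7% available. Ccl5-high cells made 12.1% and 9.78%, compared to 22.997% and 18.7%, and interferon cells 2.65% and 8.41%, compared to 5.25% and 16.7%. Cxcr3-negative cells were near their available share in the second run, with 18.9% and 17.8%, and somewhat below it in the third, with 9.70% and 11.9%. With 30 principal components they made 18.6% of these neighbours in the second run and 7.62% in the third. Members were thus found among one another more often than their share, but most of their neighbours belonged to other classes. These shares are a description, with no test, as the cells of a run are not replicates.

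**Figure D4:**
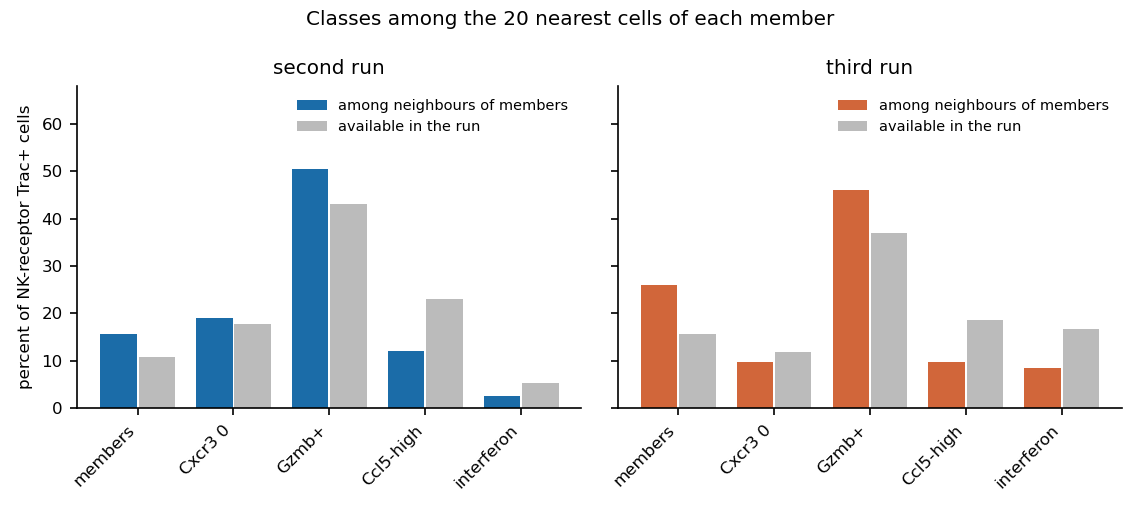
Share in percent (vertical axes, from 0) of each class (horizontal axes) among the NK-receptor Trac+ cells that were one of the 20 nearest cells of a member (colored bars), beside its share of the NK-receptor Trac+ cells available in the run (grey bars). Gzmb-positive cells were the largest class in both runs, at 50.5% and 46.1% of those neighbours.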

How the data were processed

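Droplet 3' libraries (kit V2 or V3.1) were aligned and counted by the authors with Cell Ranger on mm10, and the deposited values are raw UMI counts per gene and cell. The header of the third run gives Cell Ranger 4.0.0, while the study's methods name an older version beside it and do not say which version was used for the second run. R 3.6.3 and Seurat 2.3 are also named in the submitters' processing notes.

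A cell was kept when it had between 500 and 5000 detected genes and a mitochondrial share no higher than 7%, 8852 of 8887 in the second run and 7511 of 8869 in the third, out of deposited totals of 52797915 and 98533329 UMIs. Members held 686868 and 1080249 UMIs. Members, classes and 26 gene lists were chosen with earlier results of these data known, so that no pattern is independent support for the choice. UMI counts were summed for each run and class over 27734 shared genes, genes with low counts were left out, and the 10 gate genes were kept in library sizes but not tested. 4 comparisons were fitted with edgeR 4.0.16 (quasi-likelihood, TMM, the run as a term): members against all other NK-receptor Trac+ cells, and, in a joint fit of 5 classes, against the Cxcr3-negative, Ccl5-high and Gzmb-positive classes. The interferon class was compared by levels only. Differences between runs were shared by the classes (median correlation over 10 class pairs 0.768, lowest 0.649). Each run was 1 library of pooled thymi, so the p-values measure the spread between 2 sorts only, which may be technical, and runs were not tested against each other. DESeq2 1.42.0, thinning, other gates and a doublet score (Python 3.11.15, scanpy 1.11.5, the 750 highest scores of each run left out) served as alternatives. Doublets were kept otherwise, and 6.67% and 6.06% of members had such a score, compared to 8.47% and 9.99% of all cells. The other classes all had higher shares than the members. These were 11.4% and 12.9% for Cxcr3-negative, 10.9% and 12.6% for interferon, 11.8% and 9.74% for Ccl5-high, and 10.9% and 11.1% for Gzmb-positive cells. The steps were tested on simulated data. Genes were named by a rule: a fixed set of lineage and effector genes, the 10 largest rises and falls with the same direction in both runs (5 against the Ccl5-high and Gzmb-positive classes), and the 4 members of each list with the smallest adjusted p. Other called list members that spell out a count were named after their values were seen. Shares have exact 95% binomial intervals and levels exact Poisson ones, and a count of 0 was set against 3 UMIs, all of which cover counting error only. Gene positions and sequences are from GENCODE M21 on GRCm38.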

Additional observations from a re-analysis of the deposited data

How the results depend on the processing

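Counts of called genes are given in the order other NK-receptor Trac+ cells, Cxcr3-negative, Ccl5-high and Gzmb-positive, against 145, 197, 137 and 7 as reported. Without the run term they were 0, 0, 0 and 0 by edgeR, with the direction of every reported call unchanged. DESeq2 called 24, 84, 45 and 3, in the last 2 higher and 1 lower against 3 and 4 as reported. Thinning to 1000 UMIs, which tested fewer genes, gave 4, 21, 48 and 7. With no low-count filter the counts were 188, 401, 260 and 82. Without the top doublet scores they were 36, 182, 154 and 12, with Ccl5 at 0 76, 250, 161 and 22, with an NK-receptor sum of 3 or more 195, 48, 118 and 11, and with Cxcr3 of 2 or more, which left 155 members, 141, 167, 128 and 22. 2 alternatives were chosen after seeing the data. Without cells of 100 or more Igha UMIs the counts were 257, 239, 164 and 20, and without cells with B, myeloid or erythroid transcripts 191, 156, 102 and 4. A limit of 5% mitochondrial counts gave 174, 134, 113 and 7. The log2 difference of Igha against the Cxcr3-negative cells turned to -0.082 without the cells of 100 or more Igha UMIs (Igha, members against Cxcr3-negative base-gate cells). Hist1h1b and Hist1h3c against the Gzmb-positive cells turned to 0.23 and 0.0014 without the top doublet scores. Against the other NK-receptor Trac+ cells, Birc5 and Top2a turned to 0.067 and 0.18 with thinned counts, Cd74 and Mki67 to 0.49 and 0.23 without the top doublet scores, and Mki67 and Top2a were at 0.12 and 0.046 in the second run alone. Against the Cxcr3-negative cells, H2-Q6 and Top2a turned to -0.0072 and 0.059 with thinned counts and Mki67 to 1.33 without the top doublet scores. The cause was not tested. Members made 14.8% and 22.97% of the neighbours with gate genes left in, compared to 13.3% and 21.3%. The run term pairs the classes of a run, and the counts without it are those without that pairing. Eomes and Ncr1 had too few UMIs for the test against the Ccl5-high cells.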

Other observations

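The first run, sorted from the same strain as DN and TCRγδ+ cells, held 5516 cells within the limits, of which 4 had Trac and NK-receptor transcripts. 2 of these were Cxcr3-positive members, 1 was Cxcr3-negative and 1 was Ccl5-high, and they entered no comparison.

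Zbtb16 or Tbx21, the factors of innate-like and type 1 cells, was detected in 23.8% of members in the second run and 58.2% in the third, and both in 0.952% and 16.4%. In DN3-like cells either was detected in 0.489% and 1.47%, at median depths of 6500 and 7960 UMIs, whereas the shares were 21.3% and 58.9% in Cxcr3-negative and 24.3% and 50.6% in Gzmb-positive cells. All of Klrk1, Klrd1 and Klrb1c were present in 29.5% and 38.2% of members. Ikzf2 was not particular to NK-receptor cells, since DN3-like cells had it at 87.0 and 203 CPM, compared to 115 and 231 CPM in members.

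Trbv1 and Trbv13-2 gave 9 UMIs each in third-run members, while Trbv12-2 led in the second run with 3 UMIs. Tcrg-V4 had 21 UMIs in 14 members of the third run.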
